A study of Mus musculus with 8 samples.

Results

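The genes described here carry the signal of myostatin and the activins in skeletal muscle, or hold it back: the follistatins Fst and Fstl3, the related Fstl1, the receptors Acvr2a, Acvr2b and Acvr1b, and the intracellular proteins Smad2, Smad3 and Smad7. They were chosen by name as members of this pathway together with Mstn, the gene of myostatin. This choice, and that of the gene lists below, was made with earlier results of these data known, so the sets were not chosen blindly. Every probe set that the array annotation pairs with exactly 1 of these 10 symbols was taken. This gave 9 of the 18194 genes that the annotation names in this way, with 19 of the 45101 probe sets on the array. No probe set was paired with Mstn in the annotation used, so the level of myostatin itself is not analysed here.

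Myostatin and activins are secreted dimers that limit muscle mass. They bind a type II receptor, ACVR2A or ACVR2B, which then activates a type I receptor such as ACVR1B, and the type I receptor phosphorylates SMAD2 and SMAD3, which enter the nucleus with SMAD4 and regulate transcription. Follistatin and FSTL3 bind the ligands outside the cell and block them, and SMAD7, itself a transcriptional target of the pathway, acts as a brake on the activated receptor.

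RNA came from the quadriceps of adult male C57Bl/10 mice, with 4 arrays in each of 2 groups. Hypoxia mice lived for 2 weeks in a sealed chamber whose oxygen was lowered from 21% to 8% in the first week and held at 8% for 7 more days. Control mice stayed in room conditions for the same time, and none of the labels names a genetic change in either group. Since the chamber is described for Hypoxia mice alone, the chamber and the low oxygen cannot be told apart, and the labels do not say whether each group's 4 samples were taken from different animals, so p-values measure the spread between these samples. The arrays address how sustained low oxygen alters the transcripts of a limb muscle.

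The values are MAS5 signals, a background-corrected brightness per probe set that the authors had scaled to a common mean, and they cannot be compared between probe sets. The number of arrays limits their precision. All 8 markers of muscle fibres passed the filter on dim probe sets and 7 of them fell, with a summed signal of 258879 to 367008 in Hypoxia and 409112 to 484225 in Control. RNA integrity was read from the signal of Gapdh at its 3' end over that at its 5' end, which was 3.44 in Hypoxia replicate 1, 0.801 to 0.874 in Hypoxia replicates 2 to 4 and 0.776 to 0.807 in Control. For beta-actin this was 2.53 in Hypoxia replicate 1, 1.40 to 1.59 in Hypoxia replicates 2 to 4 and 1.09 to 1.25 in Control. Changes and folds below are of Hypoxia against Control on signal + 16, the changes as log2 differences of Hypoxia minus Control, with the standard error (SE) and the Benjamini-Hochberg adjusted p of limma's moderated test over all 27022 probe sets past the filter.

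After hypoxia the quadriceps had lower Smad3 and Fstl1 transcript levels, on 2 probe sets each, lower Acvr2b and higher Acvr1b, while Smad7 showed no difference that passed the test. Smad3 was 3.63-fold lower and Fstl1 3.09-fold lower on their brightest probe sets, Acvr2b was 1.77-fold lower and Acvr1b 2.27-fold higher. Acvr2a and Smad2 were each higher on 1 of their 2 probe sets past the filter and did not pass on the other, and Fst was lower on its dimmer probe set alone. Of the 19 probe sets, 14 from 8 genes passed the filter, which lay at a signal of about 90.2, and 5 were below it, among them the only one for Fstl3. Of the 14, 3 were higher and 6 lower at an adjusted p under 0.05, where 12.5% of all probe sets tested were higher and 16.4% lower, or 28.8% in all. The counts were 3 and 5 without Hypoxia replicate 1. The groups did not overlap in 8 of the 14, where this was so for 30.1% of all probe sets tested. The median change of the 14 was -0.03, beside -0.04 over all probe sets tested, with members on both sides of it.

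**Figure D1:**
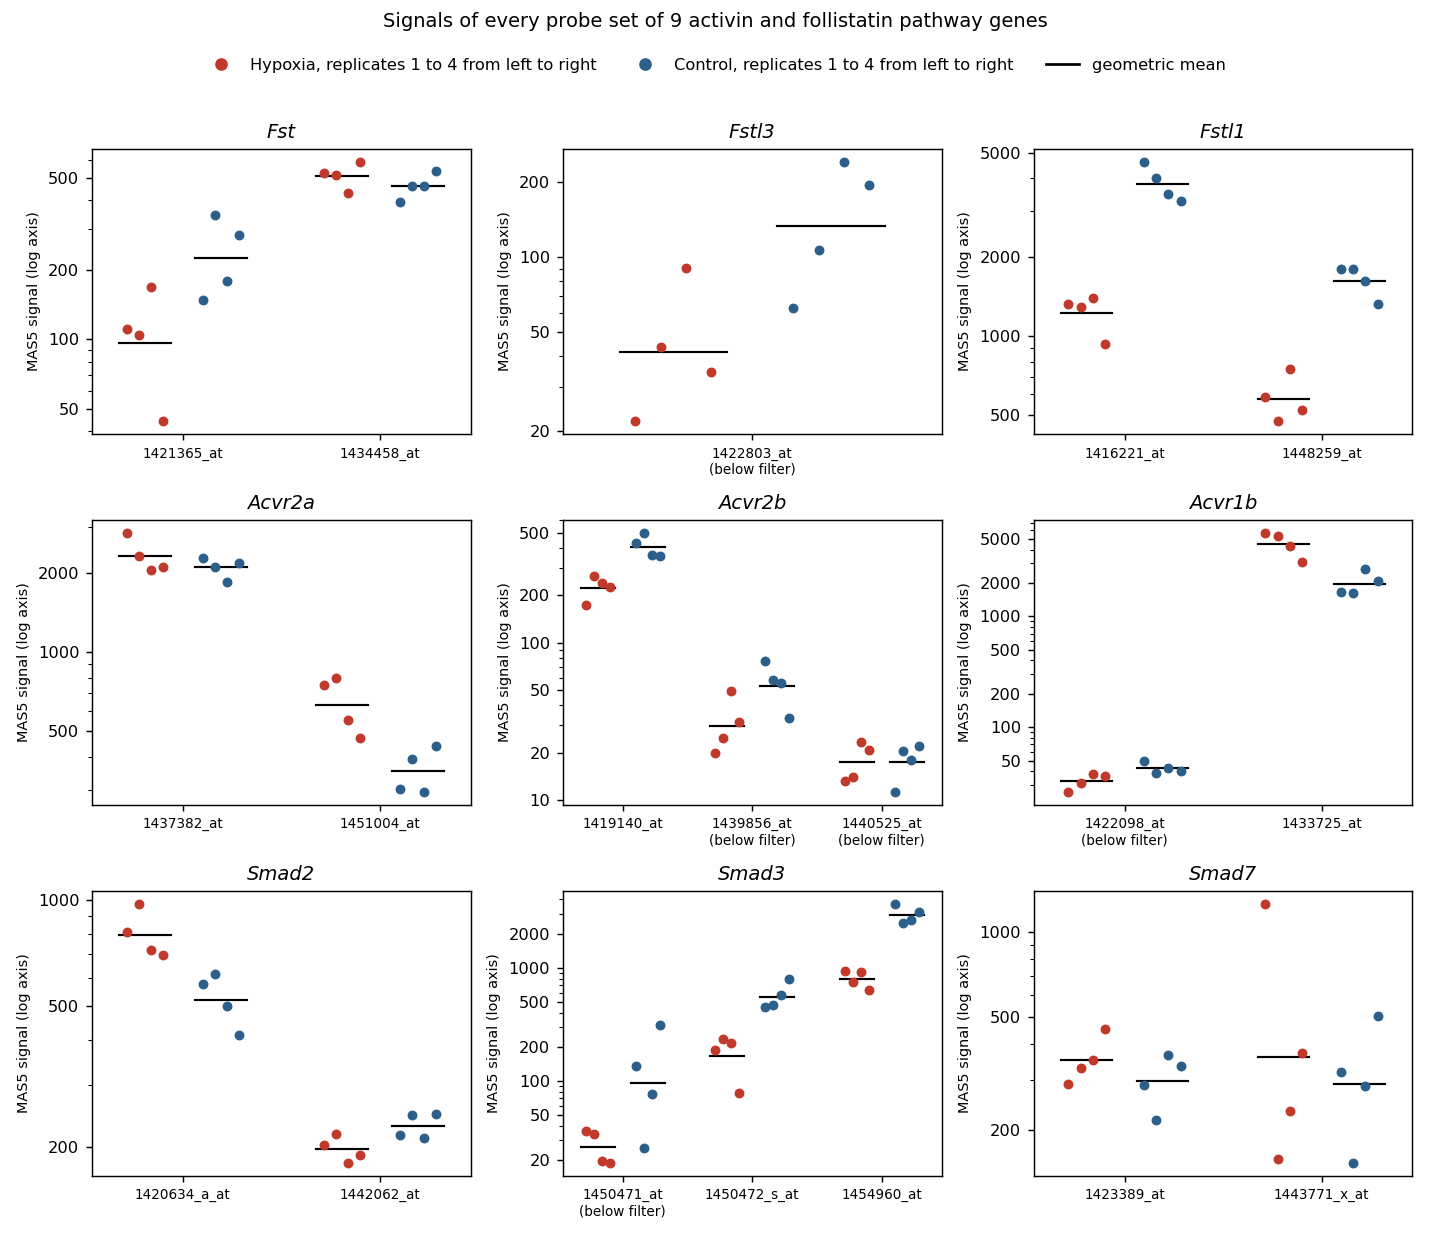
MAS5 signal of each of the 19 probe sets on every array (vertical, log axis), with Hypoxia arrays in red to the left of Control arrays in blue and a line at the geometric mean of each group. The 4 Hypoxia points lie under the 4 Control points on both Fstl1 probe sets, on Acvr2b 1419140_at and on Smad3 1450472_s_at and 1454960_at, and above them on Acvr1b 1433725_at, Acvr2a 1451004_at and Smad2 1420634_a_at. On the dim Acvr1b 1422098_at, below the filter, they lie just under the Control points.

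Follistatin, the main secreted antagonist of activins and myostatin, was read by 2 probe sets that gave different answers. The brighter one, 1434458_at, had signals of 526.1, 513.6, 432.0 and 586.0 in Hypoxia replicates 1 to 4 and 392.1, 462.1, 461.6 and 534.5 in Control replicates 1 to 4. The groups overlapped, and the change of 0.15 ± 0.17 (SE, adjusted p = 0.567 by limma) had a 95% interval of -0.22 to 0.52. The dimmer one, 1421365_at, had 110.4, 104.2, 168.1 and 44.4 in Hypoxia and 148.6, 345.5, 179.6 and 283.3 in Control. Here Hypoxia replicate 3 lay above Control replicate 1, and 3 of the 4 Hypoxia arrays lay under every Control array. The change was -1.09 ± 0.37 (SE) and passed narrowly (adjusted p = 0.0442 by limma), but the call was lost without any one of Hypoxia replicates 1, 2 and 4 and Control replicates 2, 3 and 4, with an adjusted p of up to 0.135 by limma, and under quantile normalization and median centring. The change of Fst is therefore uncertain in these data.

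Fstl3, which encodes a follistatin-like antagonist of the same ligands, was dim throughout. Its probe set 1422803_at had 22.0, 43.5, 90.2 and 34.5 in Hypoxia and 62.5, 107.5, 241.8 and 195.7 in Control. The means were 47.5 ± 29.8 in Hypoxia and 151.9 ± 81.6 in Control (SD, n = 4 each), and the highest Hypoxia array lay above the lowest Control array. It was below the filter and entered only the fit without a filter, where it changed by -1.36 ± 0.47 (SE) and did not pass (adjusted p = 0.0692 by limma).

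Fstl1 encodes a secreted glycoprotein that shares the follistatin domain but is not an established myostatin antagonist. It is known as a product of fibroblasts and other mesenchymal cells and as a factor released from muscle. Its probe set 1416221_at had 1323.1, 1294.1, 1398.4 and 936.4 in Hypoxia and 4616.5, 4025.0, 3473.6 and 3288.8 in Control. All 4 Hypoxia arrays lay far below the dimmest Control array, and Fstl1 fell by 1.63 ± 0.17 (SE, adjusted p = 2.33e-05 by limma). The other probe set, 1448259_at, had 583.6, 474.8, 751.8 and 521.4 in Hypoxia and 1807.9, 1798.6, 1618.5 and 1328.0 in Control, again without overlap, and fell by 1.48 ± 0.18 (SE, adjusted p = 7.60e-05 by limma). Both falls passed under every alternative in which they were tested and without each array in turn. Fibroblast markers were lower in the same arrays: all 7 tested of 8 listed fell (median -2.90), and their summed signal was 2783 to 4768 in Hypoxia and 23628 to 30205 in Control. In whole muscle, fewer cells of a type and less RNA per cell cannot be told apart, and the part of fibroblasts in the Fstl1 result was not tested.

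Among members with a probe set past the filter, Fstl1, Acvr1b and Smad3 had the largest changes on the brightest one. The 250 bases before their start sites are shown from RefSeq on GRCm38.p6, written 5' to 3' on the strand of the gene. They were searched on both strands for ACGTG and GCGTG, the core of the element that hypoxia-inducible factors are known to bind, and for CAGAC, a short box that SMAD3 and SMAD4 are known to bind. Capitals mark the matches. The Fstl1 stretch lies at chr16:37776805-37777054 on the + strand, the Acvr1b stretch at chr15:101173822-101174071 on the + strand and the Smad3 stretch at chr9:63757995-63758244 on the - strand.
Fstl1: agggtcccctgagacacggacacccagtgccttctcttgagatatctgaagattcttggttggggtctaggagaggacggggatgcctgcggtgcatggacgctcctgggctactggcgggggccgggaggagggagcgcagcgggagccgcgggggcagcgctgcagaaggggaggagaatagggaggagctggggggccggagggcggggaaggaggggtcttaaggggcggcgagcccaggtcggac
Acvr1b: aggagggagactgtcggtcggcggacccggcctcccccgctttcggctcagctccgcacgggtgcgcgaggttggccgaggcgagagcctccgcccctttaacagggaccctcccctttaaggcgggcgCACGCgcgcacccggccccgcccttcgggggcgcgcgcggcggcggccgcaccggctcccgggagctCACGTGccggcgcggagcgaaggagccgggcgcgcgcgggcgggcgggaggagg
Smad3: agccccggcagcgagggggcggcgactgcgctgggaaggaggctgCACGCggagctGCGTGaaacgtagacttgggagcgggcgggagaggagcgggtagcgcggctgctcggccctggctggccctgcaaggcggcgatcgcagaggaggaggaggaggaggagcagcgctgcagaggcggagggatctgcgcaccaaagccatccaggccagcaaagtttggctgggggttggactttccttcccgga

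The Smad3 stretch held 2 matches to GCGTG, 1 on each strand. The Acvr1b stretch held 1 match to GCGTG, and 2 to ACGTG that overlap on opposite strands in 1 palindrome. The Fstl1 stretch held neither, and none of the 3 held CAGAC. Of all 32851 promoter stretches of this length in the table, 38.6% held ACGTG or GCGTG and 42.2% held CAGAC, so matches of this kind are common, and they mark letters and not bound sites.

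The type II receptors, which bind the ligand first, moved in different ways. Acvr2b, the type II receptor with high affinity for myostatin, had signals of 173.6, 263.3, 241.0 and 226.9 in Hypoxia and 431.7, 499.1, 358.1 and 356.7 in Control on 1419140_at. Each Hypoxia array was dimmer than each Control array, and Acvr2b fell by 0.82 ± 0.20 (SE, adjusted p = 0.00879 by limma). This call held under the alternatives tried and without each array, with adjusted p-values of up to 0.0338 by limma. The other 2 Acvr2b probe sets were below the filter. Of these, 1439856_at had means of 31.2 ± 12.9 in Hypoxia and 55.7 ± 17.5 in Control, and 1440525_at had 17.9 ± 5.04 in Hypoxia and 18.0 ± 4.79 in Control (SD, n = 4 each), and neither passed in the fit without a filter.

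Acvr2a, the other type II receptor of activin and myostatin, was read at different sizes by its 2 probe sets. The brighter, 1437382_at, had 2855.1, 2329.4, 2050.8 and 2118.8 in Hypoxia and 2282.2, 2106.4, 1860.8 and 2196.5 in Control, which overlapped, and changed by 0.14 ± 0.15 (SE, adjusted p = 0.538 by limma) with a 95% interval of -0.19 to 0.46. On 1451004_at the signals were 747.9, 796.0, 553.3 and 473.2 in Hypoxia and 301.8, 392.7, 294.1 and 440.6 in Control. Here the groups did not overlap, and Acvr2a rose by 0.81 ± 0.21 (SE, adjusted p = 0.0133 by limma), so the size of any change of Acvr2a is uncertain. A further probe set that the annotation pairs with both Orc4 and Acvr2a was not used.

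Acvr1b encodes ALK4, the type I receptor that activin uses and myostatin can use. On 1433725_at its signals were 5672.6, 5347.0, 4289.8 and 3119.0 in Hypoxia and 1655.4, 1630.0, 2698.4 and 2062.2 in Control. The lowest Hypoxia array was above the highest Control array, although both groups were spread wide. Acvr1b rose by 1.18 ± 0.22 (SE, adjusted p = 0.00135 by limma), and by 1.07 without Hypoxia replicate 1. Its other probe set, 1422098_at, was below the filter, with means of 33.1 ± 5.40 in Hypoxia and 43.1 ± 5.02 in Control (SD, n = 4 each). There every Hypoxia array lay under every Control array, by a narrow margin (at most 38.0 in Hypoxia and at least 38.6 in Control) and opposite in direction to the rise on 1433725_at. In the fit without a filter it changed by -0.27 ± 0.29 (SE, adjusted p = 0.605 by limma).

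Smad3, a receptor-regulated SMAD that carries activin, myostatin and TGF-beta signals to DNA, had the largest fall among the members. On 1454960_at the signals were 931.3, 746.2, 922.7 and 630.0 in Hypoxia and 3676.1, 2475.8, 2643.1 and 3095.3 in Control. The brightest Hypoxia array stood well under the dimmest Control array, and Smad3 fell by 1.86 ± 0.18 (SE, adjusted p = 1.32e-05 by limma). On 1450472_s_at, of a kind that can also bind related transcripts, they were 185.8, 234.3, 215.1 and 77.9 in Hypoxia and 451.1, 468.6, 571.3 and 788.5 in Control. Again the groups did not overlap, and the fall was 1.65 ± 0.31 (SE, adjusted p = 0.00151 by limma). The third probe set, 1450471_at, was below the filter, with 19.0 to 36.3 in Hypoxia and 25.5 to 311.3 in Control. Without Hypoxia replicate 1, the 2 probe sets past the filter changed by -1.93 and -1.70.

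Smad2, the closest relative of Smad3, is phosphorylated by the same receptors, and its 2 probe sets differed in sign. On 1420634_a_at it had 807.2, 974.0, 719.5 and 697.1 in Hypoxia and 576.7, 616.3, 499.9 and 415.0 in Control, with every Hypoxia array higher, and it rose by 0.59 ± 0.18 (SE, adjusted p = 0.0277 by limma). This call was lost without Hypoxia replicate 2, Control replicate 3 or Control replicate 4, with adjusted p-values of 0.0878, 0.0646 and 0.0876 by limma. On 1442062_at it had 202.9, 217.3, 180.6 and 190.2 in Hypoxia and 215.6, 246.1, 212.3 and 247.9 in Control, and changed by -0.21 ± 0.20 (SE, adjusted p = 0.480 by limma) with a 95% interval of -0.63 to 0.22. The groups overlapped there, and the change of Smad2 is uncertain.

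Smad7, the inhibitory SMAD, gave no difference beyond the spread of the arrays. On 1423389_at it had 290.9, 329.4, 352.7 and 455.1 in Hypoxia and 287.4, 217.0, 366.7 and 336.0 in Control, a change of 0.24 ± 0.22 (SE, adjusted p = 0.453 by limma) with a 95% interval of -0.23 to 0.71. On 1443771_x_at it had 1258.2, 157.5, 232.5 and 373.3 in Hypoxia and 320.0, 153.1, 285.9 and 503.8 in Control. Hypoxia replicate 1 was the brightest of the 8 there, and the change of 0.32 ± 0.52 (SE, adjusted p = 0.698 by limma) turned to -0.26 without it. Its 95% interval of -0.81 to 1.44 leaves the size of any change there poorly bounded.

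**Figure D2:**
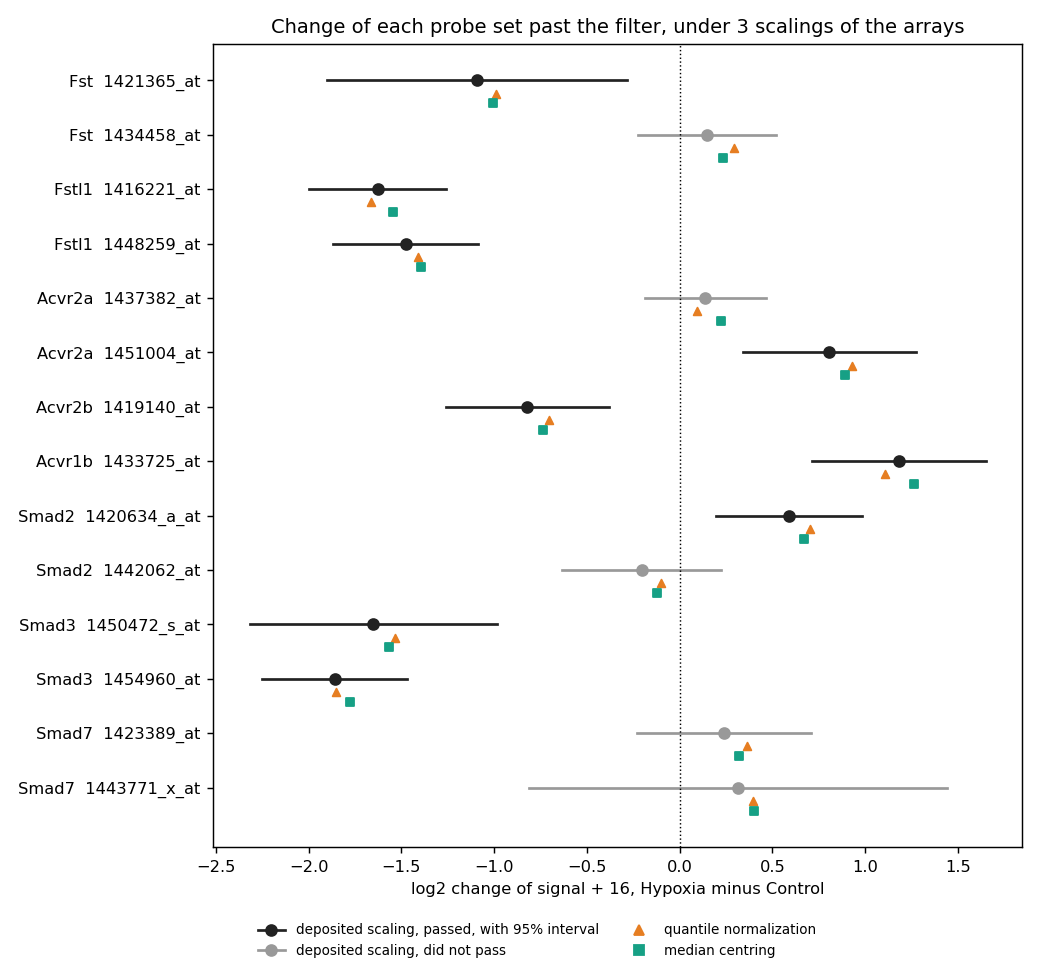
Log2 change of the 14 probe sets past the filter, Hypoxia minus Control on signal + 16 (horizontal), with the 95% interval under the deposited scaling (circles, black where the test was passed) and the change after quantile normalization (triangles) and median centring (squares). The signs agree under all 3 scalings, and Smad3 and Fstl1 lie farthest to the left, at -1.86 to -1.48.

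Whether members changed unequally was tested on the difference of 2 log2 values from the same array, which 1 scaling factor per array moves little. The brightest probe set of each gene was used and 5 pairs were compared, with the exact two-sided permutation test over the 8 arrays, whose smallest possible p is 0.0286. The Smad3 minus Smad2 difference averaged 0.01 ± 0.33 in Hypoxia and 2.46 ± 0.38 in Control (SD, n = 4 each), so that Smad3 changed by -2.45 relative to Smad2 (exact permutation p = 0.0286, adjusted p = 0.0357). The Acvr2b minus Acvr2a difference averaged -3.28 ± 0.43 in Hypoxia and -2.32 ± 0.22 in Control, a change of -0.96 (exact permutation p = 0.0286, adjusted p = 0.0357). The dimmer probe sets, Smad2 1442062_at and Acvr2a 1451004_at, changed by -0.21 and 0.81, unlike the brightest ones used here at 0.59 and 0.14. The sizes of both differences therefore depend on the probe set read, and the pairs were not tested on the dimmer ones. For Acvr1b minus Acvr2b, a type I against a type II receptor, the averages were 4.23 ± 0.51 in Hypoxia and 2.23 ± 0.54 in Control, a change of 2.00 (exact permutation p = 0.0286, adjusted p = 0.0357). For Smad7 minus Smad3 they were -1.09 ± 1.18 in Hypoxia and -3.26 ± 0.55 in Control. This was a change of 2.18 with the same exact p-values, or of 1.67 without Hypoxia replicate 1. Smad7 was read there on 1443771_x_at, with signals of 157.5 to 1258.2 in Hypoxia, and this pair was not tested on 1423389_at. In these 4 pairs no Hypoxia array overlapped a Control array. The Fst minus Fstl3 difference, of the 2 soluble antagonists, averaged 3.16 ± 0.77 in Hypoxia and 1.65 ± 0.65 in Control and overlapped (exact permutation p = 0.0571, adjusted p = 0.0571). Since Fstl3 was below the filter, this difference has no firm size, and its change of 1.51 ran from 1.04 to 1.81 with the constant added and the scaling. An unequal change does not show that either gene of a pair stayed the same.

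**Figure D3:**
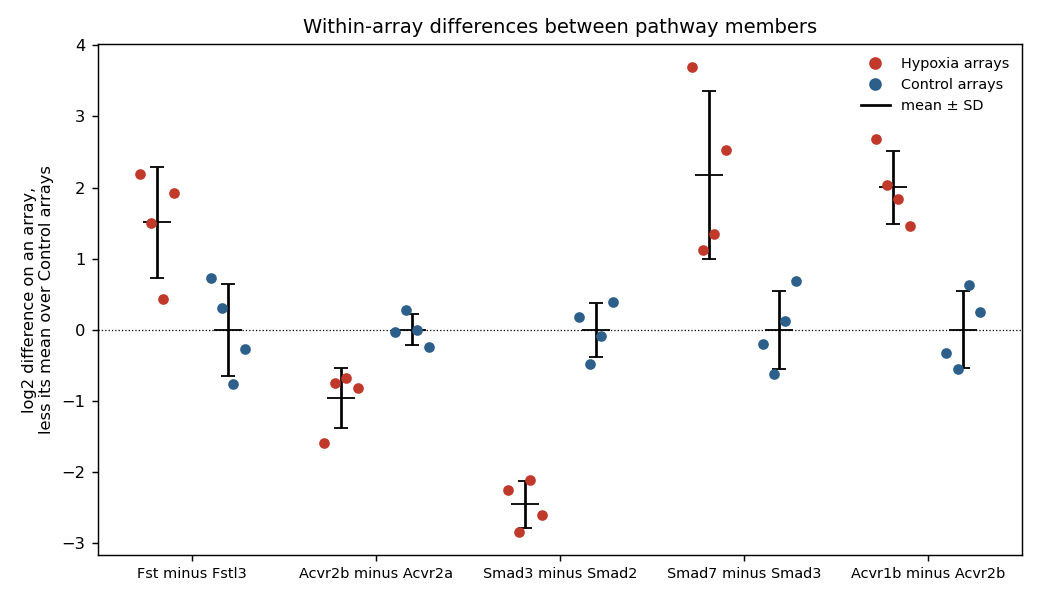
Difference of the log2 values of 2 genes on the same array, less its mean over the Control arrays (vertical), for 5 pairs of members, with 1 point per array and the mean ± SD of each group. The Hypoxia points of Smad3 minus Smad2 average -2.45 and lie apart from the Control points, as they do in 3 of the other 4 pairs but not in Fst minus Fstl3.

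Around these members, 80 further genes of the TGF-beta superfamily were listed, of which 68 were tested on their brightest probe set, 8 were below the filter and 4 had no probe set paired with 1 symbol. Of the 68, 9 were higher and 13 lower, or 32.4% in all, where 14.0% of all genes tested were higher and 17.8% lower, or 31.9% in all. Their median change of -0.05 was close to the -0.04 of all genes tested. Without Hypoxia replicate 1 the counts were 7 and 13, and the count of lower genes was 8 without Control replicate 3 and 9 without Hypoxia replicate 4. Of the 22 genes that passed, 14 did so without each array in turn, and those that did not are named as such.

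Among the ligands, 2 of 14 tested were higher and 1 lower, or 21.4% in all, where 31.9% of all genes tested passed. Gdf5, a growth and differentiation factor known from joint formation, had 354.2, 224.2, 391.3 and 333.8 in Hypoxia and 19.3, 25.3, 25.5 and 32.1 in Control. Every Hypoxia array was brighter than every Control array, but Gdf5 passed the filter only through the Hypoxia arrays and fell under it when any one of them was left out, so no size or p is given and its place in the count of 2 rests on the filter. Inhbc, an inhibin subunit known from liver, had 282.8, 182.6, 235.3 and 235.4 in Hypoxia and 64.9, 32.2, 81.9 and 167.0 in Control without overlap. It is the other gene in that count, and its Control mean was also under the filter, so the size of its rise depends on the constant added. Bmp2, a bone morphogenetic protein, fell by 1.45. Its Hypoxia signals of 26.7 to 138.8 lay around the filter's 90.2, so the size of this fall also depends on the constant added. Inhba, which encodes the subunit of activin A, changed by -0.38 ± 0.20 (SE, adjusted p = 0.172 by limma), Tgfb3 by -0.41 and Tgfb2 by 0.35, and none of these passed. The 3 other Tgfb2 probe sets changed by -1.28 to -0.59, and 2 of them passed as lower, so the direction of Tgfb2 is uncertain.

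Of the proteins that bind, store or process these ligands outside the cell, 5 of 15 tested fell and the others did not pass. This is 33.3% passing, where 31.9% of all genes tested passed in either direction and 17.8% were lower. Ltbp4, a latent TGF-beta binding protein of the matrix, had 168.7, 171.8, 421.5 and 389.2 in Hypoxia and 1271.1, 1243.5, 1022.6 and 1100.3 in Control and fell by 2.06 ± 0.28 (SE, adjusted p = 0.000176 by limma). Bmper, a secreted modulator of bone morphogenetic proteins, fell by 1.07. Dcn, the matrix proteoglycan decorin that can bind TGF-beta and myostatin, fell by 1.02 on its brightest probe set, while another changed by 0.67 without passing. Bmp1, a tolloid-family protease, and Ltbp3, both named after their values were seen, fell by 0.67 and 0.60, and each call was lost on leaving out any of 6 arrays. The Bmp1 call was also lost under quantile normalization, and both calls were lost under median centring and with the replicate block. Another probe set of Bmp1 changed by -0.79 and passed, and another of Ltbp3 changed by -0.28 without passing. Wfikkn1, whose product binds myostatin, changed by 0.23, the processing protease Furin by 0.38 and Thbs1, which can activate latent TGF-beta, by 0.59, none of which passed. The median change of this list was -0.17, beside -2.90 for the fibroblast markers, whose part in its falls was not tested.

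Of the other receptors, 2 of 11 were higher and 3 lower, or 45.5% in all, where 31.9% of all genes tested passed. Tgfbr1, which encodes the type I receptor ALK5, had 3085.5, 3844.9, 3465.4 and 3199.5 in Hypoxia and 2394.0, 2271.6, 2145.9 and 1939.9 in Control. It rose by 0.63 ± 0.14 (SE, adjusted p = 0.00430 by limma), and its 2 other probe sets changed by -0.49 and -0.23 without passing, so it is uncertain. Tgfbr3, the co-receptor betaglycan, rose by 0.87, while another probe set changed by 0.08 without passing, so its change is uncertain as well. Tgfbr2 changed by 0.35 without passing. Acvr1, which encodes the type I receptor ALK2, had 539.3, 390.2, 514.7 and 503.6 in Hypoxia and 1117.9, 972.5, 977.8 and 1040.5 in Control and fell by 1.06 ± 0.16 (SE, adjusted p = 0.000356 by limma). Acvrl1, an endothelial type I receptor, fell by 0.87, and the endothelial co-receptor Eng fell by 0.49, a call lost on leaving out any of 7 arrays, under both other scalings and with the replicate block. Another probe set of each of Acvrl1 and Eng changed by 0.05 and 0.06, so both are uncertain. The summed signal of 6 endothelial markers was 3549 to 6768 in Hypoxia and 4394 to 7423 in Control.

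Of the other SMADs and their regulators, 3 of 17 were higher and 3 lower, or 35.3% in all, where 31.9% of all genes tested passed. Smad1, which carries the signal of bone morphogenetic proteins, rose by 0.74, a call lost without Control replicate 2. Fbxo30, a ubiquitin ligase subunit restrained by bone morphogenetic protein signalling in mouse muscle, had 1044.1, 1204.3, 1448.8 and 938.0 in Hypoxia and 546.1, 553.1, 515.9 and 594.0 in Control. It rose by 1.03 ± 0.17 (SE, adjusted p = 0.000639 by limma). All 3 of its other probe sets passed, with changes from -0.82 to 1.64. Since 1 of these was of opposite sign, its direction is uncertain. Ppm1a, a phosphatase that can act on SMAD2 and SMAD3, rose by 0.61 with 4 of 6 other probe sets of opposite sign, and the call was lost without any of 5 arrays. Smurf2, a ubiquitin ligase that works with SMAD7 on the receptors, had 607.6, 511.9, 564.6 and 542.1 in Hypoxia and 1138.1, 1023.8, 1207.7 and 1057.9 in Control and fell by 0.97 ± 0.15 (SE, adjusted p = 0.000361 by limma). Ski, a corepressor of SMADs, fell by 0.67, and Zfyve9, which encodes the anchor SARA that presents SMAD2 and SMAD3 to the receptor, fell by 0.75, a call lost on leaving out any of 4 arrays.

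Of the SMAD target genes, 2 of 11 were higher and 1 lower, or 27.3% in all, where 31.9% of all genes tested passed. Cdkn1a, the cell cycle inhibitor p21 that p53 also induces, had 7440.9, 10601.7, 9102.6 and 9542.6 in Hypoxia and 1754.2, 1082.9, 1600.9 and 875.1 in Control and rose by 2.82 ± 0.21 (SE, adjusted p = 1.98e-06 by limma). Klf10, a zinc finger factor known as an early TGF-beta response gene, had 5401.8, 3862.2, 3747.8 and 7191.9 in Hypoxia and 2134.1, 1491.6, 1493.1 and 1332.1 in Control and rose by 1.61 ± 0.22 (SE, adjusted p = 0.000178 by limma). Pmepa1, a TGF-beta induced inhibitor of SMAD activation, fell by 0.64, a call lost without any of 3 arrays and under quantile normalization. Ctgf changed by 0.70, Cdkn2b by -0.91 and Tgfbi by -0.18 without passing.

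**Figure D4:**
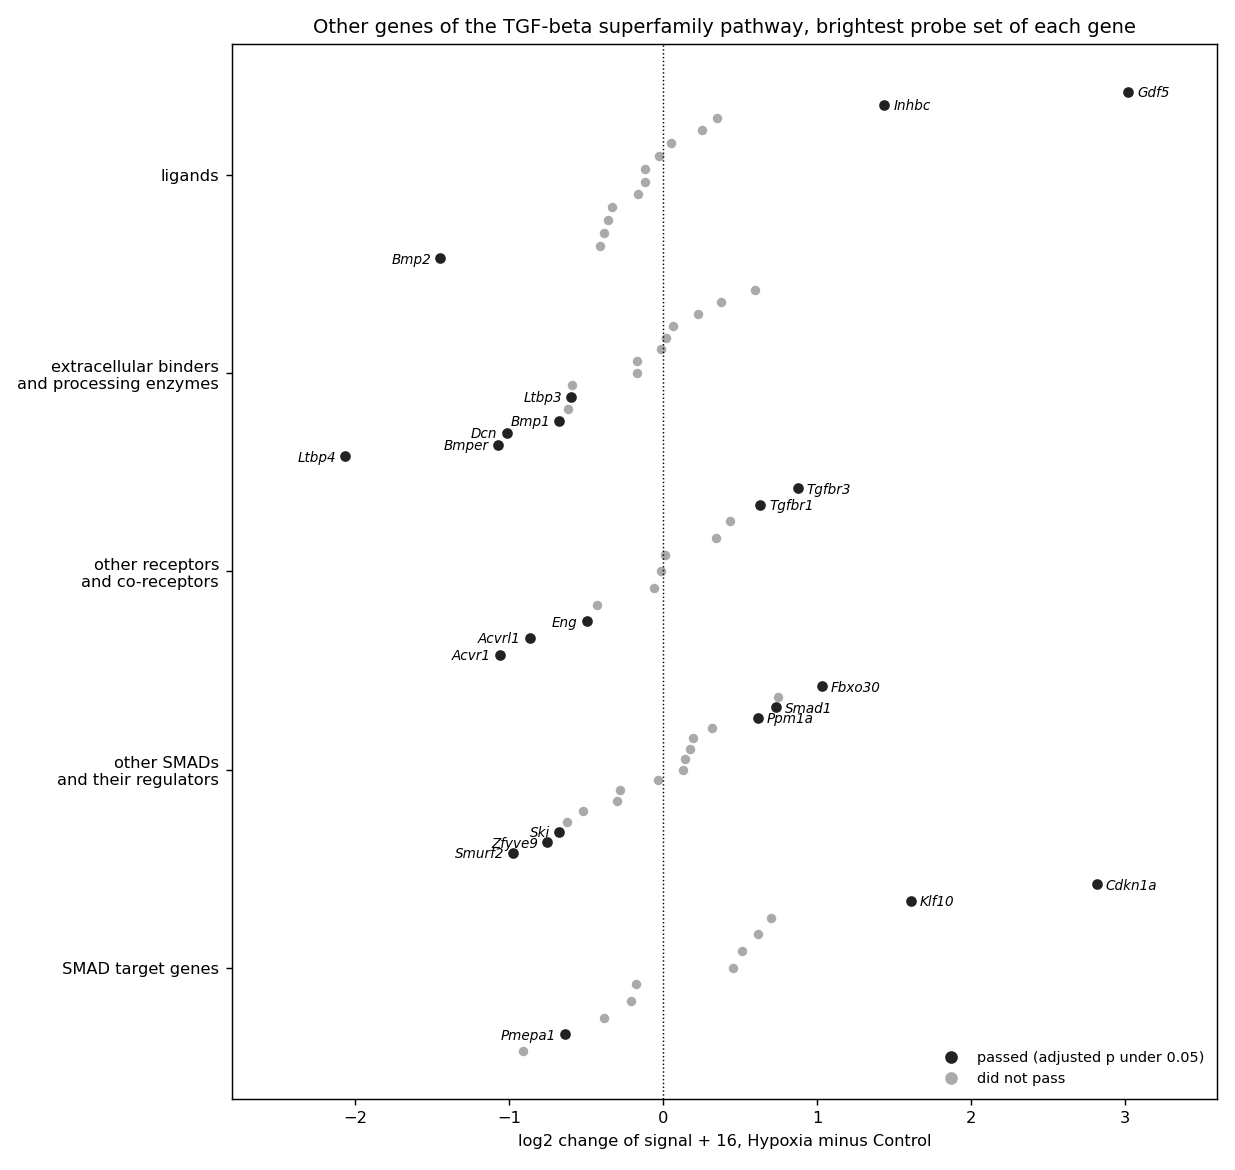
Log2 change, Hypoxia minus Control on signal + 16 (horizontal), of 68 other genes of the TGF-beta superfamily on their brightest probe set, in 5 lists, with genes that passed in black and named. Ltbp4 lies farthest to the left, at -2.06. The point of Gdf5 on the far right has no firm size because its Control signals of 19.3 to 32.1 are under the filter. The extracellular list holds 5 genes that fell and none that rose, or 33.3% of 15 tested, where 31.9% of all genes passed in either direction. The calls of Bmp1 and Ltbp3 in it were each lost on leaving out any of 6 arrays.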

How the data were processed

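One array was run per RNA sample, 8 in all, on an Affymetrix whole-genome mouse array. The deposited values are linear intensities, named MAS5 per the submitters' processing notes, with no version given in the sources used here. The authors had scaled each array to a 2% trimmed mean of 500.0 (checked on the values); no further normalization was applied. Per-array medians ran from 127.6 to 164.6, no 2 arrays were identical, and the number of arrays, not a depth, limits the precision. Signals of dim probe sets are noisy under MAS5, and broken RNA lowers signals read far from the 3' end.

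Groups came from the sample titles. The analysis used log2 of the deposited signal + 16, so changes of dim genes are understated. Control probe sets and the 40% with the lowest mean were left out, which left 27022 of 45101. Hypoxia was compared with Control in limma 3.58.1 (R 4.3.3; lmFit, eBayes with an intensity trend, no block), with Benjamini-Hochberg adjustment over 27022 probe sets and a threshold of 0.05. The annotation pairs 34958 probe sets with a single symbol and 932 with more; the 9211 it does not list were not named. Other genes of the pathway and cell type markers were read on the brightest probe set. The text names all members, of each pathway list up to 3 genes per direction with the smallest p, and genes said to be named after their values were seen. Planned pairs with Mstn, and a search for genes patterned like it, could not be run. The members and lists were chosen with earlier results of these data known.

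On simulated data with 50 changed probe sets per size among 27022, 4% of those with a log2 change of 0.5 were recovered. For changes of 1, 2 and 4 this was 32%, 84% and 100%, while 2 unchanged ones were called. In the real comparison far more probe sets passed, 7790 or 28.8%. The adjusted threshold was therefore stricter in the simulation, and these rates do not give the share of changes missed in the real data. Alternative settings changed the scaling (quantile or median), the constant added (1 or 64), the filter (none or 60%), the probe sets (brightest only), eBayes (no trend, or robust), array weights, a replicate block and, in turn, each array.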

Additional observations from a re-analysis of the deposited data

Results flagged for a closer look

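In 3 of 108 sets of 4 arrays looked at, 1 array stood apart from the other 3 by Dixon's ratio, which chance does in about 1 of 20 sets. The Acvr2b minus Acvr2a difference was -3.92 in Hypoxia replicate 1 and -3.14 to -3.01 in the other Hypoxia arrays, all of them below the Control range of -2.57 to -2.04. This is also the array with the high 3' to 5' ratio of Gapdh, 3.44, whose part in the value was not tested, and without it the change of Acvr2b relative to Acvr2a was -0.75. For Inhba, Control replicate 4 was low, at 8.39 on the log2 scale of signal + 16, or a signal of 320.2 beside 386.9 to 394.9 in the other Control arrays. For Tgfbi, Control replicate 3 was high, at 11.37 on the same scale, or a signal of 2637.5 beside 2000.4 to 2073.9. Neither gene passed the test.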

How the results depend on the processing

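Smad3, Fstl1, Acvr2b, Acvr1b and Acvr2a 1451004_at kept direction and call under every alternative tried in which they were tested, and without each array in turn. Adjusted over the brightest probe set of each gene only, 3 member probe sets were lower in place of 6, since 8 of the 14 were then tested. Across the 8 fits that leave out 1 array, 2 to 3 member probe sets were higher and 5 to 6 lower, and of the other pathway genes 7 to 10 were higher and 8 to 13 lower, the lowest count being that without Control replicate 3. The call of Fst 1421365_at (-1.09) was lost under quantile normalization (-0.99, adjusted p = 0.0723 by limma), median centring (-1.01, 0.0674), no filter (0.0829), eBayes without the trend (0.0502) and the replicate block (0.0716), and over the left-out arrays its change ran from -1.32 to -0.79. Smad2 1420634_a_at ran from 0.48 to 0.67 over the left-out arrays. Smad7 1443771_x_at changed sign without Hypoxia replicate 1 (-0.26) and ran up to 0.70. Same-numbered arrays did not deviate together (r = -0.07, 0.01, -0.06 and -0.04 for numbers 1 to 4 across probe sets). These values gave no sign that the numbers pair the samples, but they cannot show that no weak pairing exists. With the replicate block 3 member probe sets were higher and 5 lower, and 11 pathway genes were higher and 11 lower. The within-array tests gave 4 of 5 pairs past 0.05 with quantile normalization and with pseudocounts of 1 and 64. With 1 array left out these exact tests cannot pass, so only their values were compared, and no pair changed sign. MAS5 signals near or below 90.2 limit Fstl3 and the dim probe sets of Acvr2b, Acvr1b and Smad3, for which no firm change can be given.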

Other observations

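For 6 genes with at least 2 probe sets past the filter, the 2 brightest were compared within arrays, a check added after the values were seen. The changes of the Smad2 probe sets differed by 0.79 (1420634_a_at minus 1442062_at; exact permutation p = 0.0286, adjusted p = 0.0857 over the 6 genes), and those of Acvr2a by -0.67 (1437382_at minus 1451004_at; exact permutation p = 0.0286, adjusted p = 0.0857). Neither passed after adjustment, although the groups did not overlap in either, and 0.0286 is the smallest p that 4 against 4 arrays can give. For Fst the difference was 1.24 (exact permutation p = 0.0857, adjusted p = 0.171). The 2 brightest Fstl1 probe sets differed by -0.15 (exact permutation p = 0.371) and those of Smad3 by -0.21 (exact permutation p = 0.543), and the groups overlapped for both.

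Markers of other cells gave the following values. Of 6 macrophage markers 1 was higher, Cd68, and 2 lower, with summed signals of 8867 to 15558 in Hypoxia and 9646 to 14319 in Control. Of 4 neutrophil markers tested 3 were higher, S100a8, S100a9 and Ngp, with sums of 3053 to 5757 in Hypoxia and 385 to 864 in Control. Most of the Hypoxia sums came from S100a8, at 2144 to 3095, and S100a9, at 461 to 1865. Elane changed by -0.01 without passing, and Mpo was below the filter. Of 5 satellite cell and myoblast markers tested 1, Myod1, was lower, with sums of 15719 to 19792 in Hypoxia and 15156 to 19460 in Control. Most of these sums came from Des, at 14927 to 17297 in Hypoxia and 13395 to 17498 in Control, so they say little about the other markers of this list. Of 6 smooth muscle and pericyte markers 4 were lower and 1 higher, and both adipocyte markers tested were lower. Their part in the results above was not tested.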
